A study of Homo sapiens with 12 samples.

Results

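Tight junction genes were followed in 2 human breast cancer cell lines. The 10 genes listed were CLDN1, CLDN3, CLDN4, CLDN7, OCLN, MARVELD2, TJP1, TJP3, CGN and F11R. Each gene was read from the probe set that the platform table assigns to it alone, and where there were several, from the one with the highest mean over the 12 arrays. By this rule 9 of the 10 genes were measured, out of 19775 genes in all, and F11R was not analysed here. CLDN3 stayed under a log2 value of 5 on every array, so 8 genes entered the tests.

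Tight junctions are the belt-like contacts that seal neighbouring epithelial cells together near their apical side. Claudins form the strands that decide which ions pass between cells. Occludin (OCLN) and tricellulin (MARVELD2) are MARVEL-domain membrane proteins of the same strands, and tricellulin gathers where the corners of cells meet. On the inner side, the scaffold proteins ZO-1 (TJP1) and ZO-3 (TJP3) and the adaptor cingulin (CGN) tie the strands to the actin cytoskeleton. F11R encodes the adhesion molecule JAM-A. Loss of claudins and occludin is a known feature of carcinoma cells that have taken on a mesenchymal form.

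RNA was hybridised to 12 single-colour Affymetrix HG-U133 Plus 2.0 arrays, 6 from Hs578T cells and 6 from BT-20 cells. All cells received 200 nM of an oligonucleotide with the liposomal reagent DOTAP for 24 h, and no untreated cells were analysed here. CDH13 M is a double-stranded stretch of CDH13 exon 1 with methylated CpG cytosines, and CDH13 U is the same sequence without methylation. Each of these was given to each line in set 1 and in set 2, which the labels call biological replicates. ODN2006, a single-stranded CpG oligonucleotide known to bind TLR9, and its GpC control, ODN2006 CTL, were given once to each line, so their groups hold 1 array. The array codes in the labels fall into 2 series, called batches here: batch 1 holds set 1, and batch 2 holds set 2 and the 4 ODN arrays. The oligonucleotides are shown because the treatments differ in these letters and in strandedness. Capitals mark the CpG pairs, or the GpC pairs in the control, and only the upper strand of CDH13 is given.
ODN2006: tCGtCGttttgtCGttttgtCGtt
ODN2006 CTL: tGCtGCttttgtGCttttgtGCtt
CDH13: tCGgatCGccCGgcaCGggcagggtgaggg

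The labels name both lines breast cancer cells. All 10 epithelial markers (CDH1, EPCAM, KRT7, KRT8, KRT18, KRT19, ESRP1, ST14, SPINT1 and RAB25) were lower in Hs578T, with a mean log2 value over the 10 of 4.56 to 4.81 on the Hs578T arrays and 12.4 to 12.6 on the BT-20 arrays. Of these, 7 were under 5 on all 6 Hs578T arrays, CDH1 and EPCAM among them. All 10 mesenchymal markers (VIM, CDH2, ZEB1, FN1, SPARC, COL1A2, COL6A3, AXL, CAV1 and TWIST1) were higher in Hs578T, with means of 13.1 to 13.4 against 4.72 to 5.24. Of the mesenchymal markers, 7 were under 5 on all 6 BT-20 arrays. Array medians lay between 3.01 and 3.09. How precise the values are is limited by how few arrays there are.

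The main question of the rule was how tight junction genes differ between the lines. All 8 tested genes were lower in Hs578T than in BT-20, at a median log2 difference of -5.08, where the median over all 10410 genes tested was -0.09. The lines differed widely: 74.6% of all genes passed the adjusted threshold of 0.05, 40.2% lower and 34.4% higher in Hs578T. The claudins CLDN7 and CLDN4 and the MARVEL proteins OCLN and MARVELD2 had the 4 largest differences, and the scaffold TJP1 had the smallest. With values under 5 raised to 5 before the fit, CLDN1 (-3.45) came before MARVELD2 (-3.02). On the M and U arrays CLDN4, CLDN7, OCLN, MARVELD2, TJP3 and CGN reached 5 in BT-20 but not in Hs578T, so 6 of the 8 entered the test through BT-20 alone and had to differ; only CLDN1 and TJP1 reached 5 in both lines. In RNA from whole cultures, fewer cells with a transcript and less transcript per cell cannot be told apart.

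CLDN7 encodes a claudin found along the sides of many epithelial cells. Its log2 values in Hs578T were 2.21 (M) and 2.09 (U) in set 1, 3.41 and 2.18 in set 2, 2.54 with ODN2006 and 2.09 with the control. BT-20 gave 10.3 (M) and 10.2 (U) in set 1, 10.4 and 10.6 in set 2, 10.5 with ODN2006 and 10.3 with the control. The lines did not overlap, and the highest Hs578T array lay 6.80 below the lowest BT-20 array. In the 8 M and U arrays the difference was -7.92 (SE 0.26; adjusted p = 4.70e-07). With every value under 5 raised to 5, CLDN7 was still 42.0-fold higher in BT-20 over the 12 arrays.

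CLDN4 is a claudin known to restrict the passage of sodium. It gave 3.27 (M) and 3.28 (U) in set 1 of Hs578T, 3.52 and 3.45 in set 2, 3.30 with ODN2006 and 3.28 with the control. In BT-20 the values were 9.40 and 9.64, 9.52 and 9.73, 9.41 and 9.95 in the same order. Each line was uniform and far from the other, with a difference of -6.20 (SE 0.10; adjusted p = 2.17e-08). After raising values under 5 the fold was 24.5. A second probe set for CLDN4, 1569421_at, gave 2.19 to 2.22 on every array of both lines and did not separate them.

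CLDN1, the claudin that is essential to the barrier of skin, differed less and was above 5 on all 12 arrays. Hs578T gave 6.45 (M) and 6.73 (U) in set 1, 5.77 and 5.31 in set 2, 7.26 with ODN2006 and 6.13 with the control. BT-20 gave 10.3 (M) and 9.23 (U) in set 1, 9.17 and 9.36 in set 2, 9.42 with ODN2006 and 9.35 with the control. The lines did not overlap and differed by -3.45 (SE 0.39; adjusted p = 1.89e-04), which is 10.9-fold. Its second probe set, 218182_s_at, was also lower in Hs578T (4.61 to 6.29) than in BT-20 (7.67 to 9.19). CLDN3 was dim in both lines, at 3.65 to 3.90 in Hs578T and 4.11 to 4.67 in BT-20, and its other probe set lay at 2.20 to 2.86 and 4.00 to 4.65, so no fold is given for it.

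OCLN had log2 values of 4.23 (M) and 4.69 (U) in set 1 of Hs578T, 4.38 and 3.92 in set 2, 5.19 with ODN2006 and 5.17 with the control. In BT-20 it ranged from 10.0 to 10.2 over the 6 arrays. The difference was -5.83 in the M and U arrays (SE 0.18; adjusted p = 3.22e-07) and -4.89 in the ODN arrays, where Hs578T was highest. With values under 5 raised, OCLN was 33.2-fold higher in BT-20. Probe sets 209925_at (2.80 to 3.16 against 7.13 to 7.88) and 231022_at (2.72 to 3.10 against 4.91 to 6.33) ran the same way, while 235937_at stayed between 2.47 and 2.81 in both lines.

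MARVELD2 gave 2.60 (M) and 2.57 (U) in set 1 of Hs578T, 2.52 and 2.52 in set 2, 3.86 with ODN2006 and 3.63 with the control. BT-20 gave 8.27 and 8.003, 7.97 and 7.86, 7.85 and 7.93 in the same order. The difference was -5.47 (SE 0.10; adjusted p = 3.80e-08), and the fold after raising values under 5 was 7.89. Its second probe set, 235955_at, was at 3.15 to 3.23 in Hs578T and 5.54 to 6.92 in BT-20.

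Of the scaffolds, CGN was uniformly low in Hs578T (2.81 to 2.87, median 2.87) and lay at 7.26 to 7.88 (median 7.58) in BT-20. It differed by -4.68 (SE 0.10; adjusted p = 6.84e-08), and by 5.86-fold after raising values under 5. Its probe set 223232_s_at gave 1.96 to 2.13 against 6.86 to 7.31. TJP3 ranged more widely, from 3.37 to 4.41 in Hs578T and from 6.51 to 8.28 in BT-20. The TJP3 difference was -3.54 (SE 0.32; adjusted p = 6.80e-05), with a raised-value fold of 5.83, and probe set 213412_at lay at 2.21 to 2.60 against 5.38 to 6.54.

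TJP1 was bright in both lines, and of the 8 tested genes its line difference was closest to 0. Hs578T gave 11.3 (M) and 11.3 (U) in set 1, 11.2 and 11.6 in set 2, 11.8 with ODN2006 and 11.7 with the control. BT-20 gave 12.5 and 12.4, 12.03 and 12.1, 12.1 and 12.1 in the same order. The lines were close but did not overlap: the lowest BT-20 array lay 0.23 above the highest Hs578T array. The difference of -0.90 (SE 0.15; adjusted p = 0.00140) is 1.87-fold. It was -1.13 within set 1, -0.67 within set 2 and -0.39 within the ODN arrays. Probe set 214168_s_at gave 8.18 to 8.89 in Hs578T and 9.30 to 10.0 in BT-20.

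**Figure D1:**
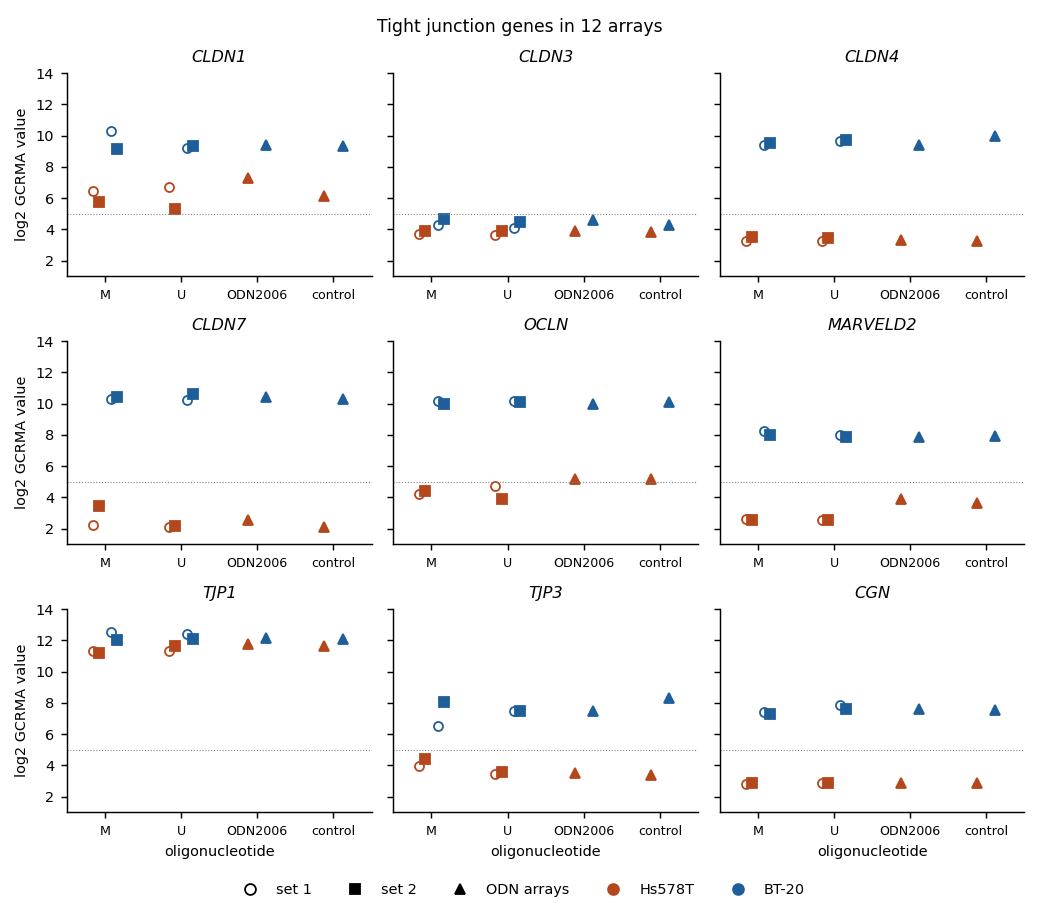
Log2 GCRMA values (vertical axis) of 9 tight junction genes on the 12 arrays, by oligonucleotide (horizontal axis), with Hs578T in orange and BT-20 in blue; the dotted line is the value of 5 used in the filter. In every panel except CLDN3, which is dim throughout, and TJP1, whose values run from 11.2 to 12.5, the lines are far apart.

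**Figure D2:**
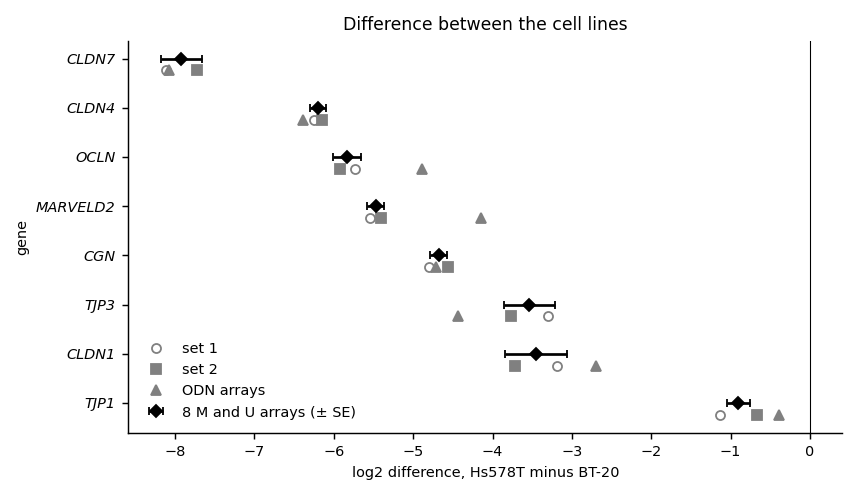
Log2 difference of Hs578T minus BT-20 for the 8 tested genes; black diamonds are the fit to the 8 M and U arrays with its SE, and grey symbols are the differences within set 1, set 2 and the ODN arrays. All symbols lie below 0, and the diamonds run from CLDN7 at -7.92 to TJP1 at -0.90. OCLN (-4.89), MARVELD2 (-4.15), CLDN1 (-2.69) and TJP1 (-0.39) are nearer to 0 in the ODN arrays than in either set.

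The genes whose centred profile over the 12 arrays lay nearest to that of CLDN7 by Euclidean distance were TMEM30B (distance 0.986), ST8SIA6-AS1 (1.21), TDRD12 (1.26), PLBD1 (1.27) and BST2 (1.30). Of the tight junction genes measured, MARVELD3 (2.21) and CLDN4 (3.17) were nearest to CLDN7. With 2 lines, such profiles are set mainly by the size of the line difference.

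Of 56 other tight junction genes, 49 were measured and 27 tested. In Hs578T 17 of the 27 were lower and 4 were higher, with a median of -1.07; the 77.8% that passed is near the 74.6% of all genes. Of the 27, 6 reached 5 on the M and U arrays of BT-20 alone: CXADR, ILDR1, MARVELD3, PATJ, PARD6A and PRKCZ. On those of Hs578T alone 2 did (JAM3 and PARD3B), so all of these genes had to differ. Over the 12 arrays with values under 5 raised to 5, ILDR1 was 4.13-fold, PATJ 14.4-fold and PARD6A 3.85-fold higher in BT-20. The raised values of the others are given below. Among the tricellular and MARVEL proteins, 3 of 3 tested were lower: MARVELD3, the third MARVEL protein of the junction, by -7.38 (SE 0.27; adjusted p = 7.89e-07; 32.0-fold with values raised), LSR, which recruits tricellulin to cell corners, by -5.00 (SE 0.21; adjusted p = 1.69e-06), and the LSR relative ILDR1. Of the polarity proteins, which set where the junction forms, 8 of 9 tested were lower, led by the atypical protein kinase C PRKCZ at -5.36 (SE 0.16; adjusted p = 3.10e-07; 5.28-fold with values raised), and PARD3B was higher by 1.85 (SE 0.22; adjusted p = 2.58e-04). PARD3B was at 2.66 to 5.36 in Hs578T and at most 2.41 in BT-20, and with values raised its difference was 0.12. Of the other scaffolds, 3 of 6 were lower and the multi-PDZ protein MPDZ was higher by 0.80 (SE 0.16; adjusted p = 0.00320).

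The immunoglobulin-like adhesion molecules were divided. CXADR, the coxsackievirus and adenovirus receptor, was at 2.38 to 3.22 in Hs578T and 8.26 to 10.2 in BT-20, a difference of -6.35 (SE 0.46; adjusted p = 2.16e-05) and 15.2-fold with values raised. JAM3, known from junctions of endothelial and mesenchymal cells, was at 9.49 to 10.1 in Hs578T and 3.15 to 3.73 in BT-20, a difference of 6.42 (SE 0.16; adjusted p = 1.23e-07) and 26.7-fold with values raised. CLMP, a relative of CXADR, was also higher in Hs578T by 5.66 (SE 0.17; adjusted p = 3.22e-07). These 2 genes had the largest positive differences of the list. Among 16 other claudins measured, 14 were too dim to test, and CLDN12 (-0.30; adjusted p = 0.0726) and CLDN19 (-0.07; adjusted p = 0.526) did not pass.

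**Figure D3:**
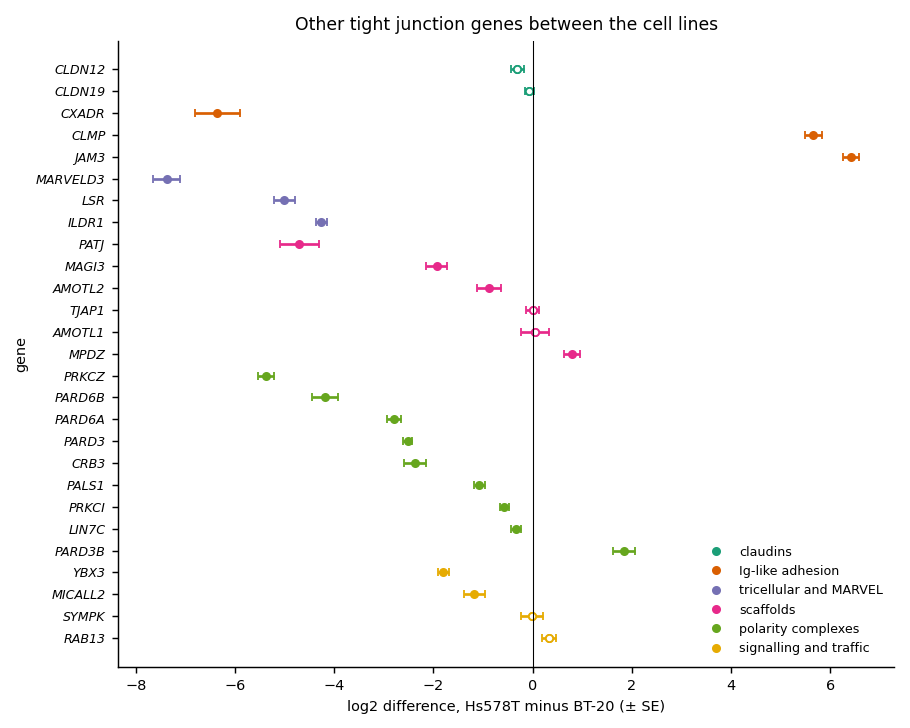
Log2 difference of Hs578T minus BT-20 (± SE) for the 27 other tight junction genes tested, coloured by role; open symbols did not pass the adjusted threshold. Most filled symbols lie left of 0, down to MARVELD3 at -7.38, while JAM3 (6.42) and CLMP (5.66) stand far to the right.

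Transcription factors known to act on junction genes differed too. ZEB1, ZEB2, SNAI2 and TWIST1 are known as repressors of epithelial genes. All 4 were higher in Hs578T, where 34.4% of all genes tested passed as higher. ZEB1 was at 10.4 to 11.4 in Hs578T and 2.11 to 2.17 in BT-20, a difference of 8.41 (SE 0.10; adjusted p = 6.27e-09) and 52.9-fold with values raised. TWIST1 differed by 6.39, ZEB2 by 5.43 and SNAI2 by 2.83, and SNAI2 was well above 5 in both lines (13.1 to 13.5 against 9.42 to 11.5). ZEB1, ZEB2 and TWIST1 reached 5 in Hs578T alone and had to differ. Over the 12 arrays with values under 5 raised to 5, TWIST1 differed by 4.99 and ZEB2 by 3.14. ZEB1 and TWIST1 are also among the mesenchymal markers above, so they are not separate findings here. SNAI1 was too dim to test. Of 7 factors known to promote epithelial genes, 6 were lower in Hs578T, where 40.2% of all genes tested passed as lower. These were EHF (-7.46), GRHL2 (-6.96), ELF3 (-6.06), GRHL1 (-5.96), OVOL2 (-5.65) and OVOL1 (-1.55). EHF, GRHL2, ELF3 and OVOL2 reached 5 on the M and U arrays of BT-20 alone and had to differ. With values raised over the 12 arrays they differed by -5.48, -4.63, -5.21 and -2.98. KLF4 was higher by 1.70.

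ZEB and SNAI proteins are known to bind the E-box letters CACCTG, which read CAGGTG on the other strand. The 250 bases before each RefSeq transcription start (GRCh38.p14) were searched for these letters on both strands, a choice made with the ZEB1 values known. They were present in 5 of 15 windows of the 9 measured genes, and in 17.5% of all 35116 windows. Counted by gene, 4 of the 9 had a match in any window, against 20.6% of all 27305 genes. The windows with a match belonged to CLDN7, OCLN (both of its starts), TJP1 and TJP3, and those of CLDN1, CLDN3, CLDN4, MARVELD2 and CGN had none. Whether the matches go with the size of the line difference was not tested. Starts of a gene can share bases: the pair of OCLN windows overlaps slightly, but its 2 matches are at different places.

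Windows of 3 genes are shown: CLDN7, which has the largest difference and 4 matches, against 43 windows of all with 4 or more; CLDN4, which has a large difference and no match; and TJP1, which has the smallest difference of the tested genes and 1 match. Capitals mark the E-box letters. Those of CLDN7, in the second of its 2 windows, begin 174, 135, 20 and 9 bases before the start (chr17:7262479-7262728, minus strand), and that of TJP1, in the first of its 4 windows, begins 88 bases before it (chr15:29969050-29969299, minus strand). The CLDN4 window is chr7:73830746-73830995, plus strand.
CLDN7: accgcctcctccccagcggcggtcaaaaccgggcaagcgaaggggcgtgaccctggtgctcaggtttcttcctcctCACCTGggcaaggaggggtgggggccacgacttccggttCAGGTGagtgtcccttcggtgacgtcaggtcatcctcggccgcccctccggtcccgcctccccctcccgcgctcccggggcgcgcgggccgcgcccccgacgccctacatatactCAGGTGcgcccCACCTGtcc
CLDN4: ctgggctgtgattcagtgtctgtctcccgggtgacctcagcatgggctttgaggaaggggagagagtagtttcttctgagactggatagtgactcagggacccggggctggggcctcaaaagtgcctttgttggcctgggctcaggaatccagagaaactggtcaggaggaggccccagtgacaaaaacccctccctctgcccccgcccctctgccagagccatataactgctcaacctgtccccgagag
TJP1: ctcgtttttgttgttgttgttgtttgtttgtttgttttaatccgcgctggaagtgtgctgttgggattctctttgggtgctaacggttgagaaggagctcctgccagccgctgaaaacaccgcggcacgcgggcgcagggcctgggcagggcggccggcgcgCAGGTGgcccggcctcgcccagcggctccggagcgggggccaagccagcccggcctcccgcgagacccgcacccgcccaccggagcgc
A match of letters is a description and not evidence of binding in these cells.

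The second question was whether the methylated oligonucleotide changed these genes against the unmethylated one. None of the 8 genes passed in either line, in their mean or in the difference between them, where limma called 0% of 10410 genes each time; an unadjusted p under 0.05 was reached by 680 genes (Hs578T), 174 (BT-20), 543 (mean of the lines) and 258 (difference). Among the members, M minus U ran from -0.22 (TJP1; SE 0.21) to 0.70 (TJP3; SE 0.45) in Hs578T and from -0.41 (CGN; SE 0.14) to 0.44 (CLDN1; SE 0.55) in BT-20. CGN in BT-20 was the single member with an unadjusted p under 0.05 (0.0250; adjusted p = 1.00). Set 1 gave 7.40 (M) and 7.88 (U), set 2 gave 7.26 (M) and 7.60 (U), and M was lower in both. CLDN1 in BT-20 went opposite ways, 1.08 higher with M in set 1 and 0.20 lower in set 2.

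Over both lines M minus U was -0.22 for CGN (SE 0.10; unadjusted p = 0.0659) and 0.32 for CLDN7 (SE 0.26), the ends of the members' range. The CLDN7 value was 0.02 without M of set 2 in Hs578T and 0.62 without M of set 1 in Hs578T. For the difference between the lines, the members ran from -0.35 (CLDN1; SE 0.77) to 0.90 (TJP3; SE 0.64). The TJP3 value was 0.13 without M of set 1 in BT-20 and 1.66 without M of set 2 in BT-20. With SEs of this size, small changes in CLDN1 and TJP3 were not detectable. Larger differences can miss the threshold too: PARD3B, another tight junction gene, differed by -2.03 in Hs578T and did not pass. Its M values there were under 5 (3.62 and 2.66), so the size of that difference is uncertain. Missing the threshold does not show that the oligonucleotides acted alike.

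Of the other tight junction genes none passed in these comparisons. PARD3B had the smallest unadjusted p in Hs578T (4.06e-04; adjusted p = 0.465), with 3.62 (M) and 5.32 (U) on the set 1 arrays and 2.66 (M) and 5.03 (U) on those of set 2. M was lower in both sets, and the fitted difference was -2.03 (SE 0.31). Of the M and U arrays, only the 2 U arrays of Hs578T reached 5 for PARD3B. In these comparisons it thus passed the filter through the group where it was high. CRB3, the small Crumbs protein of the apical polarity complex, gave 4.71 and 5.55 in set 1 and 4.74 and 6.57 in set 2, a difference of -1.33 (SE 0.31; unadjusted p = 0.00407; adjusted p = 0.598). PARD3B had the smallest unadjusted p over both lines and for the difference between them too, and CRB3 the next smallest for that difference. In BT-20 the smallest belonged to ILDR1 (0.61, SE 0.16; unadjusted p = 0.00687) and CLDN12 (0.30, SE 0.19; unadjusted p = 0.157), and over both lines ILDR1 came second (0.31; unadjusted p = 0.0292).

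ODN2006 was compared with its control over both lines, with the spread taken from the M and U groups because each ODN group is 1 array. None of the 8 genes passed, and 1 gene of 10543 did (0.00948%). The members' differences ran from -0.31 (TJP3; SE 0.46) to 0.60 (CLDN1; SE 0.55). CLDN1 was 1.13 higher with ODN2006 than with the control in Hs578T (7.26 against 6.13) and 0.07 higher in BT-20. Among the other tight junction genes the smallest unadjusted p-values were those of CLDN15 (-0.75, SE 0.27; 0.0295) and CLDN12 (-0.27, SE 0.19; 0.190). CLDN15 reached 5 on both control arrays (Hs578T 5.96, BT-20 5.35) but on neither ODN2006 array (4.91 and 4.89). Elsewhere it did so only for M of set 2 in BT-20 (5.07). The control arrays, where it was high, thus carried it past the filter, and the size of its difference is uncertain.

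The ODN arrays were then compared with the M and U arrays of the same batch, 2 arrays against 2 in each line. Each side joins different oligonucleotides, and the sides differ in strandedness and sequence. They may differ in culture as well: M and U here belong to set 2, while the labels name no set for the ODN arrays. Strandedness, sequence and culture cannot be told apart in this comparison. In Hs578T 2 of the 8 genes passed, both higher with ODN, where 9.03% of 10375 genes passed. MARVELD2 was at 3.86 and 3.63 with ODN2006 and its control against 2.52 and 2.52 with M and U, a rise of 1.23 (SE 0.12; adjusted p = 0.00646). OCLN was at 5.19 and 5.17 against 4.38 and 3.92, a rise of 1.03 (SE 0.16; adjusted p = 0.0213). For both genes the ODN arrays also lay above the set 1 arrays of Hs578T, at 2.60 and 2.57 for MARVELD2 and 4.23 and 4.69 for OCLN.

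All MARVELD2 values in Hs578T were under 5, and with values under 5 raised to 5 neither gene passed (MARVELD2 0.00; OCLN 0.18, adjusted p = 0.281). The rise was seen in 1 probe set of each gene. MARVELD2 235955_at differed by -0.05, and the other probe sets of OCLN by -0.02, -0.08 and -0.02. On every Hs578T array these were under 5, 235955_at at 3.15 to 3.23 and those of OCLN at most 3.16. At so low a level they cannot decide whether a rise was missing. With the median over the probe sets of a gene OCLN was at -0.05 (adjusted p = 0.942) and MARVELD2 at 0.59 (adjusted p = 0.0508). Adjusted p for OCLN was 0.0884 without the ODN2006 array of Hs578T, and 0.0508 to 0.0565 without any one BT-20 array.

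CLDN1 was at 7.26 and 6.13 with ODN against 5.77 and 5.31 with M and U, a difference of 1.15 (SE 0.35) that did not pass (adjusted p = 0.0875). Its set 1 values of 6.45 and 6.73 lay between the 2 ODN values. Without the ODN2006 CTL array of Hs578T the difference was 1.72 (adjusted p = 0.0183), and without the ODN2006 array it was 0.59. The other 5 members differed by -0.53 (TJP3) to 0.33 (TJP1) and did not pass.

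In BT-20 none of the 8 genes passed in the same comparison, in which limma called 0% of genes and 534 had an unadjusted p under 0.05. The members' differences ran from -0.13 (CLDN7; SE 0.38) to 0.16 (CGN; SE 0.13), with -0.02 (SE 0.12) for MARVELD2 and -0.01 (SE 0.16) for OCLN. The difference between the lines was tested after these values had been seen. It was 1.25 for MARVELD2 (SE 0.17; adjusted p = 0.0535) and 1.04 for OCLN (SE 0.23; adjusted p = 0.146), so none of the 8 genes passed, where 0.27% of genes did. These p-values were just over the threshold for MARVELD2 and ranged from 0.00515 to 1 under the alternatives.

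**Figure D4:**
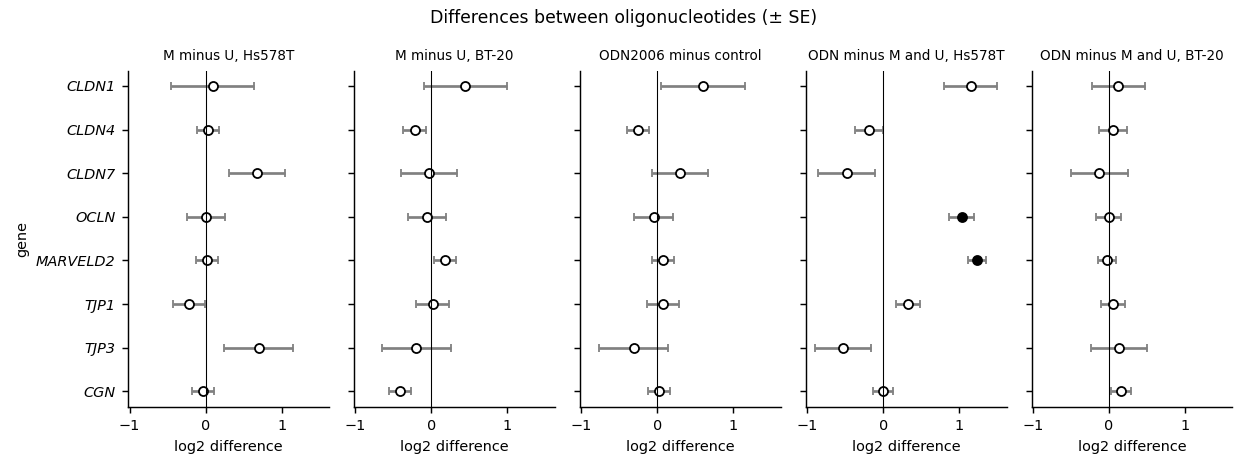
Log2 differences (± SE) of the 8 tested genes in 5 comparisons of oligonucleotides; filled symbols passed the adjusted threshold. Only OCLN (1.03) and MARVELD2 (1.23) are filled, both in the comparison of ODN with M and U in Hs578T.

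**Figure D5:**
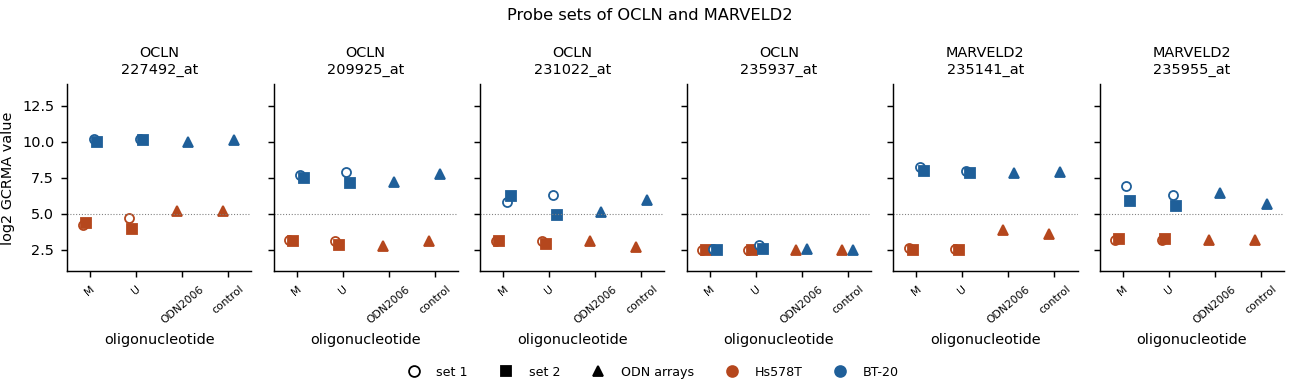
Log2 GCRMA values (vertical axis) of all single-gene probe sets of OCLN and MARVELD2 by oligonucleotide, with Hs578T in orange and BT-20 in blue. Orange triangles (ODN arrays) lie above the other orange symbols in 227492_at and 235141_at, and do not exceed the highest of them in the other probe sets.

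Of 29 other tight junction genes tested in Hs578T, 2 were higher and 1 lower with ODN, which is 10.3% and near the 9.03% of all genes. AMOTL2, an angiomotin relative that binds scaffold proteins, was at 11.4 and 11.3 against 10.5 and 10.6 (0.80, SE 0.13; adjusted p = 0.0237), but set 1 gave 10.7 and 11.0. CLDN11, the claudin of myelin and of the testis barrier, was at 5.78 and 6.40 against 4.91 and 3.74 (1.76, SE 0.38; adjusted p = 0.0391), and at 2.96 and 2.95 in set 1. The Hs578T ODN arrays were the 2 arrays of this fit on which CLDN11 reached 5, so it passed the filter through them. PARD6B, a polarity adaptor, was at 3.68 and 3.97 against 6.53 and 5.04 (-1.96, SE 0.46; adjusted p = 0.0484), and at 6.29 and 5.75 in set 1. PARD6B is named because it was the third of 3 genes to pass. In BT-20 the smallest unadjusted p-values were those of ILDR1, at 7.74 and 8.03 against 6.78 and 6.45 (1.27, SE 0.15; adjusted p = 0.181), and of PRKCZ (0.20, SE 0.12; adjusted p = 1.00). For the difference between the lines they were those of ILDR1 (-1.27; adjusted p = 0.0896) and AMOTL2 (0.70; adjusted p = 0.188).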

How the data were processed

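RNA was measured on 12 Affymetrix HG-U133 Plus 2.0 arrays. The authors deposited log2 expression values per probe set, made per the labels with GCRMA in R 2.4, and these were used as they are. Of 54675 probe sets, the platform table gave 41097 one gene symbol, 1801 several and 11777 none. Of the 41097, 41043 took the symbol that RefSeq gives for their gene, changed or not, and 54 kept that of the platform table. The members, the gene lists and the comparison of ODN with M and U were chosen with earlier results of these data known. Named were all members, of the other tight junction genes the 4 with the largest passing line difference in each direction and the 2 with the smallest p in each treatment comparison, all factors tested between lines, and the 5 profiles nearest to CLDN7.

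Group means were fitted with limma 3.58.1 (R 4.3.3, lmFit, contrasts.fit, eBayes; 4 residual degrees of freedom) to genes that reached 5 on the log2 scale on 2 or more arrays of the fit, with Benjamini-Hochberg adjustment over all genes tested and a threshold of 0.05. The line and M against U comparisons used the 8 M and U arrays, ODN2006 against its control all 12, and ODN against M and U the 8 arrays of batch 2. Nothing states that sets were separate cultures beyond the words biological replicate, so p-values measure the spread between these arrays, which may be technical. M and U arrays of one set share a series of array codes in the labels, so the set numbers were taken to pair them. Deviations of same-numbered M and U arrays correlated at 0.60 in both lines (10410 genes). Between the lines, deviations of same-numbered arrays correlated at 0.098 to 0.13. The main line fit took the arrays of a set as independent, so its p-values do not allow for the link within a set. The scripts were tested on simulated data. Alternatives were the filter, the probe set rule, a floor at 5, 2 normalizations, the variance model, the set as a block, other samples and each array left out.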

Additional observations from a re-analysis of the deposited data

Results flagged for a closer look

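Over the 6 arrays of a line, 4 of 18 sets of values held an array whose gap to its nearest neighbour was large for the range, where chance gives about 1 in 20. CLDN1 in BT-20 was at 10.3 with M in set 1, and the next array was at 9.42. MARVELD2 in BT-20 was at 8.27 on the same array, and the next was at 8.003. CLDN7 in Hs578T was at 3.41 with M in set 2, and the next was at 2.54. CGN in Hs578T was at 2.81 with M in set 1, and the next was at 2.86. The CLDN7 and CGN values are under 5. Arrays of a line differ in treatment and batch, and their part in these gaps was not tested.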

How the results depend on the processing

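All 8 members stayed lower in Hs578T and past the threshold under all 20 alternatives of the line comparison, TJP1 least firmly (-1.21 to -0.39; highest adjusted p = 0.0426). Without a filter on dim genes 9 members passed between lines, as CLDN3, under 5 on every array, then entered and passed too. Housekeeping centring moved the median of all genes by -0.31 in the line comparison, and the share lower in Hs578T among called genes from 53.9% to 66.9%. With the set as a replicate block, 8 members passed between lines (TJP1 adjusted p = 0.00157). In the 4 M against U comparisons and in ODN2006 against its control 0 passed, so the block changed no member's call in these fits. Between lines the block was 1 term common to both lines, so it could not remove a set effect particular to a line. The comparisons of ODN with M and U within batch 2 hold 1 numbered set, to which the labels do not assign the ODN arrays, and had no such fit. No member passed in the M against U comparisons or for ODN2006 under any alternative. With values under 5 raised to 5, the genes called there were 7 (Hs578T), 2 (BT-20), 9 (both lines), 9 (difference) and 219 (ODN2006, which gave 150 without a filter and 0 with a trended robust variance or the ODN arrays only, and 0 to 1 with single arrays left out), and CLDN7 over both lines was -0.015. Leaving out single arrays gave CLDN1 -0.13 to 1.01 for M against U in BT-20 and -1.06 to 0.36 for the difference between lines, and CGN -0.011 to 0.33 for ODN in BT-20; CLDN1 in BT-20 turned negative without M of set 1, its difference between lines turned positive without that array or U of set 1 in Hs578T, and CGN turned negative without M of set 2 in BT-20. For ODN against M and U in Hs578T, 0 members passed with the median over probe sets or values under 5 raised, and 1 to 4 with single arrays left out (4 without U of set 2; 1 without ODN2006 or any BT-20 array). OCLN was -0.049 with the median over probe sets. Genes called were 277 with values raised, 1444 with a trended robust variance, 1570 with the M and U arrays of both batches, an alternative chosen after seeing the data, and 50 (without ODN2006) to 1510 (without U of set 2) with single arrays left out. In BT-20 they were 4 without a filter, 8 with values raised, 7 with both batches and 0 to 4 with single arrays left out. The added difference between lines called 1 member, MARVELD2, without a filter (1.25), with quantile normalization (1.23), with both batches (1.33) and without the Hs578T ODN2006 CTL array (1.37; 0 to 1 member over single arrays left out). It called 67, 8, 68 and 119 genes without a filter, with a filter at 7, with values raised and with both batches, and 1 to 123 with single arrays left out, and OCLN was -0.13 with the median over probe sets. Housekeeping centring moved the share lower among its called genes from 25.0% to 51.3%. The cause of these changes was not tested. Leaving out an ODN array could not be fitted for ODN2006 against its control.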
